A study of Mus musculus with 6 samples.

Results

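The strongest CTCF sites that 3 erythroblast libraries had in common were described here. In each deposited peak list the 2000 peaks with the largest fold enrichment were taken. A wild-type peak of that set was counted as a common strongest site when it was overlapped by at least 1 bp by a peak of the same set in clone D and also in clone C8. This left 657 sites of the 40271 wild-type peaks, or 1.63% of that list. The sites were thus chosen by their fold enrichment in all 3 lists, and enrichments and ranks are given below as a description, with no test.

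CTCF ChIP-seq (chromatin immunoprecipitation followed by sequencing) was carried out in G1E-ER4 cells, mouse erythroblasts without their own GATA1 that express GATA1 fused to the estrogen receptor. All libraries came from cells given 100 nM estradiol for 24 hours, which activates the fusion protein, so the loss of GATA1, the fusion and the estradiol were common to every group. The groups were wild-type G1E-ER4 (1 library) and the BRD2-null sub-lines D_Brd2KO and C8_Brd2KO (1 library each), both made with CRISPR/Cas9 and without detectable BRD2, each of them a single clone. The series holds 6 samples, and its 3 input libraries were not analysed here. With 1 wild-type library and 2 clones, no test of genotype was made, and the difference between both clones is the only measure of spread within a genotype. Sequencing depth is unknown, since the peak lists hold no read totals. Nothing in the peak lists shows whether BRD2 was absent.

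CTCF is a DNA-binding zinc finger protein that recognises a long sequence motif, blocks enhancers at insulators and halts cohesin where chromatin loops are anchored. Its sites differ widely in how often they are occupied, and the strongest are bound in many cell types. BRD2 is a BET protein, which reads acetylated histones and is found with CTCF at part of its sites. The comparison asks where CTCF is bound with and without BRD2. Gene names and sequences at the sites were not analysed here.

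Most of the strongest wild-type peaks were not among the strongest of both clones at once, although nearly all of them were called there. Of the 2000 strongest wild-type peaks, 930 (46.5%, exact 95% interval 44.3 to 48.7) were overlapped by one of the strongest 2000 of clone D and 998 (49.9%, 47.7 to 52.1) by one of clone C8. The 657 sites found in both were 32.9% of the 2000 (30.8 to 35.0). Over the whole wild-type list, 2.73% of peaks were overlapped by the strongest 2000 of both clones, and 59.8% were overlapped by any peak of both clones; since enrichment chose the sites, nothing is read from these shares. A further 273 of the strongest wild-type peaks were shared with the strongest set of clone D alone, 341 with that of clone C8 alone, and 729 with neither. Intervals here and below cover counting error only.

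The clones overlapped each other somewhat more than either overlapped wild type. Of the strongest 2000 peaks of clone D, 1094 (54.7%, 52.5 to 56.9) were overlapped by the strongest 2000 of clone C8. Wild type held 656 of these 1094 peaks among its own strongest 2000 and called the other 438 at lower ranks, with a median rank of 3660.5 and none missing. Ranked by the authors' −log10 p in place of enrichment, the clones shared 1276 peaks (63.8%), against 1116 (55.8%) for wild type and clone D and 1167 (58.4%) for wild type and clone C8. By enrichment, the overlap of the clones exceeded that of wild type with clone C8 by 4.8 percentage points and that of wild type with clone D by 8.2 points, while the clones' own overlaps with wild type differed by 3.4 points.

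**Figure D1:**
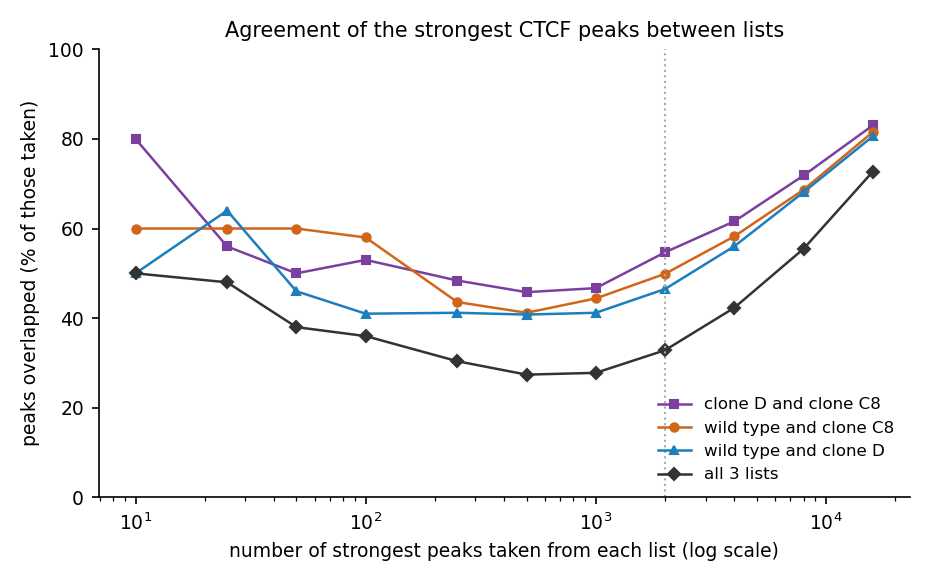
Share of the strongest peaks of a list that are overlapped by the equally long strongest set of another list (vertical axis, % of the peaks taken) against the number of peaks taken from each list (horizontal axis, log scale). Each line is a pair of lists or all 3 lists, and the dotted line marks the 2000 peaks used here, where all 3 lists shared 32.9%; the lowest point of that line is 27.4% at 500 peaks.

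How many peaks the lists shared depended on how far down each list was read, and not in a single direction. Among the 10 strongest peaks of each list, 5 wild-type peaks were shared by all 3 lists, and among the 100 strongest, 36 were. The share fell to 27.4% at the 500 strongest (137 sites), stood at 27.8% at 1000 (278 sites), and rose to 42.3% at 4000 and 72.7% at 16000. The clones overlapped each other more than either overlapped wild type at 10, 250, 500, 1000, 2000, 4000, 8000 and 16000 peaks, but not at 25, 50 and 100.

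Sites at the head of the wild-type list were common strongest sites far more often than those near its threshold. Of the 100 strongest wild-type peaks 86 were common strongest sites, against 191 of the 400 at ranks 101 to 500, 158 of 500 at ranks 501 to 1000, 131 of 500 at ranks 1001 to 1500 and 91 of 500 at ranks 1501 to 2000 (18.2%). The clones gave the same course, from 94 of their 100 strongest peaks in clone D and 92 in clone C8 down to 15.8% and 13.6% at ranks 1501 to 2000. This follows in part from the rule, since a peak near the threshold of a list can fall below it in another.

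The 8 sites with the best ranks in all 3 lists lay on 7 chromosomes. The first, chr13:111158671-111159282 (mm9, as are all positions here), ranked 2 in wild type, 1 in clone D and 2 in clone C8; the authors' enrichments there were 264.27, 125.96 and 159.94. The second, chr12:70461541-70462197, ranked 7, 2 and 3, with enrichments of 223.6, 120.2 and 157.62. The strongest wild-type peak of all, chr9:121606560-121607252, with an enrichment of 295.39, was the next and ranked 5 in clone D and 8 in clone C8. These 3 sites stood within the first 10 of every list.

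The others of the 8 stood within the first 18 of every list. The site chr3:151978564-151979092 ranked 8, 3 and 4 in wild type, clone D and clone C8, and chr17:3450934-3451546 ranked 9, 8 and 10. The site chr16:55863313-55863934 ranked 12, 4 and 6. The site chr2:109744106-109744776 ranked 15, 16 and 11, and a second site on chromosome 9, chr9:72377946-72378419, ranked 11, 15 and 18. Enrichments are not on a common scale between lists, so only the ranks are set side by side.

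The threshold itself fell in a run of equal values. The enrichment at rank 2000 was 73.35 in wild type, 42.2 in clone D and 54.72 in clone C8. In wild type 123 peaks had exactly 73.35, of which the order by chromosome and start took 16, all on chromosomes 1, 10 and 11. Just above it were chr17:87970814-87971457 (wild-type rank 1981, enrichment 73.43) and chr7:117944530-117945140 (rank 1983, 73.37). The last 3 sites inside had exactly 73.35 and lay at chr1:157422192-157422771 (wild-type rank 1986), chr10:24350240-24351040 (rank 1993) and chr10:120301321-120301959 (rank 1997). The first wild-type peaks outside, ranks 2001 to 2005, had the same 73.35 and lay on chromosome 11. Of these 5, chr11:84081494-84081998 ranked 1572 in clone D but 3057 in clone C8. By contrast, chr11:70122690-70123417 ranked 849 in clone C8 but 4001 in clone D. The other peaks of this group, starting at 51780742, 78780855 and 79005679, ranked between 8907 and 17124 in the clones, so none of the 5 was among the strongest 2000 of both. With all tied peaks taken in each list there were 681 sites, and with none 653.

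The 1343 strongest wild-type peaks that were not common strongest sites had mostly slipped down a clone list rather than left it. Of them, 1340 were called in both clones. Clone D gave them a median rank of 3928 and a lowest rank of 24583, and clone C8 a median of 3485 and a lowest of 24741. The 5 highest in wild type were chr8:122843335-122843924 (rank 29 in wild type, 2519 in clone D, 38 in clone C8), chr2:32260207-32260733 (32, 2194, 811), chr11:117964021-117964752 (39, 2926, 32), chr4:138412385-138412946 (42, 3369, 118) and chr2:32544917-32545361 (49, 871, 2241). Of these 5 peaks 4 were held back by clone D alone, and only the last by clone C8.

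Within the 657 sites the order by enrichment was only moderately alike between libraries. Spearman's rho of the ranks was 0.42 between wild type and clone D, 0.47 between wild type and clone C8, and 0.47 between the clones. These are descriptions across sites of the same lists, and taking only the top of each list narrows the range of ranks: over the 24069 wild-type peaks called in both clones, the same values were 0.69, 0.71 and 0.75. The order by −log10 p was closer, at 0.68, 0.69 and 0.76 among the 657 sites.

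**Figure D2:**
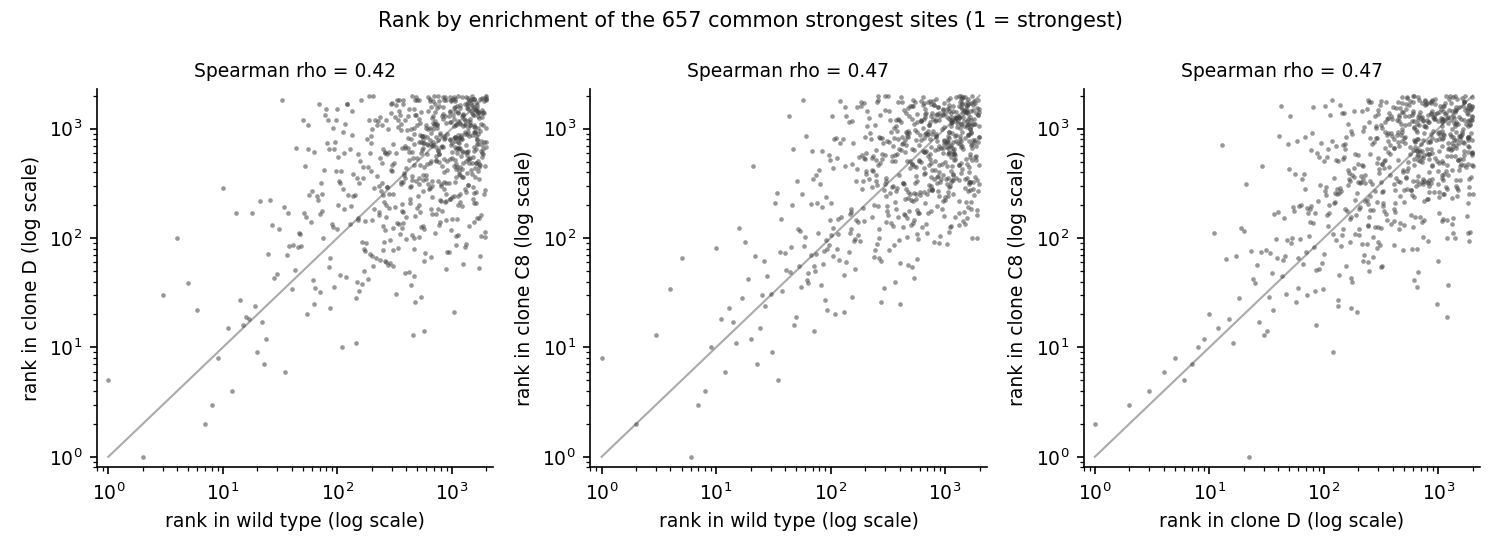
Rank by enrichment within its list of each of the 657 common strongest sites (both axes on a log scale, 1 is the strongest peak), for wild type and clone D, wild type and clone C8, and both clones. Each point is a site and the grey line marks equal ranks; points lie far from the line at early as well as late ranks, and rho was 0.42, 0.47 and 0.47.

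Rank differences between wild type and a clone were of much the same size as those between the clones. The median absolute difference in rank was 359 between wild type and clone D, 358 between wild type and clone C8 and 336 between the clones. Ranks lay within a factor of 2 of each other at 306 sites (46.6%), 338 sites (51.4%) and 324 sites (49.3%), respectively. Over all 3 lists, 157 sites (23.9%) kept their largest rank within a factor of 2 of their smallest, and at 83 sites (12.6%) the ratio exceeded 10. The median ratio was 3.28. The rule limits all of these differences and ratios, since no site can rank beyond the threshold in any list. At 44 sites all 3 ranks lay beyond 1000, where the threshold alone keeps the ratio below 2.

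Both clones ranked a site ahead of wild type more often than both ranked it behind. This was so at 265 sites, against 187 sites ranked behind by both and 203 with wild type between the clones. The median rank of the 657 sites was 645 in wild type, 552 in clone D and 534 in clone C8. Since all 3 libraries enter the rule and 1 of them is wild type, this order was not tested.

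The sites with the largest rank ratios were placed differently by a single library in some cases and by wild type in others. The largest ratio was at chr4:149614066-149614824, with rank 50 in wild type, 19 in clone C8 and 1191 in clone D. At chr15:75509580-75510065 the ranks were 33, 208 and 1827 in wild type, clone C8 and clone D. In both cases clone D ranked the site lowest. On chromosome 1, chr1:145635712-145636526 ranked 13 in clone D but 456 in wild type and 715 in clone C8.

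Wild type ranked a site lowest at the next 2 of these. The site chr1:141164373-141164955 ranked 1037 in wild type, 21 in clone D and 310 in clone C8. The ranks of chr7:4378797-4379435 were 566, 14 and 64. At the sixth, chr8:24347977-24348509, clone C8 ranked the site 25, wild type 403 and clone D 974. The smallest ratios were found deeper in the lists. That depth follows in part from the rule, since the threshold allows only smaller ratios where the best rank is later. The site chr2:103822374-103822987 ranked 1508, 1391 and 1407 in wild type, clone D and clone C8, and chr19:21821777-21822307 ranked 1242, 1361 and 1237. In the same order, chr16:57611823-57612299 ranked 848, 850 and 766, and chr7:20046825-20047229 ranked 1271, 1218 and 1128.

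Many sites held their rank within a run of equal enrichments. In the wild-type list 479 of the 657 sites (72.9%) shared their enrichment value with another peak, in clone D 434 and in clone C8 455, whereas 112, 59 and 84 sites shared their −log10 p. The strongest 2000 wild-type peaks held 615 distinct enrichment values, the commonest of which, 77.32, occurred 136 times. The part of these equal values in the rank correlations was not tested.

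The rule fixed the position of the sites to the extent of an overlap, and peak centres lay a median of less than 50 bp apart in every pair of lists. Overlap by itself limits this distance. Centre distances of other peaks were not measured, so nothing particular to these sites is read from them. The centre of the overlapping peak lay a median of 45 bp (clone D) or 49.5 bp (clone C8) from the wild-type centre, and the clone centres lay a median of 43 bp apart. Centres were within 50 bp at 359 sites (54.6%), 334 sites (50.8%) and 380 sites (57.8%), and in all 3 pairs at 165 sites. A single clone D peak overlapped 655 of the 657 sites and a single clone C8 peak 653, and at the others 2 or more did. At chr10:80343582-80344608 the clone peaks overlapped the wild-type peak of 1027 bp without overlapping each other: their centres lay 816 bp apart, the largest distance of any site.

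The common strongest sites were wider than most peaks of every list. The median width of the 657 wild-type peaks was 559 bp (quartiles 475 and 639), that of their clone D partners 637 bp (563 and 724) and that of their clone C8 partners 559 bp (472 and 634). The medians of the whole lists were 402, 489 and 417 bp, and those of peaks ranked above 4000 were 391, 473 and 405 bp. Compared with the other 1343 peaks of the strongest 2000, with medians of 539, 629 and 518 bp, the common sites were wider by 20, 8 and 41 bp. These last differences were small beside the quartiles of width in each list and were themselves unlike in the clones. No test was made, since width comes from the same peak calling as enrichment.

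**Figure D3:**
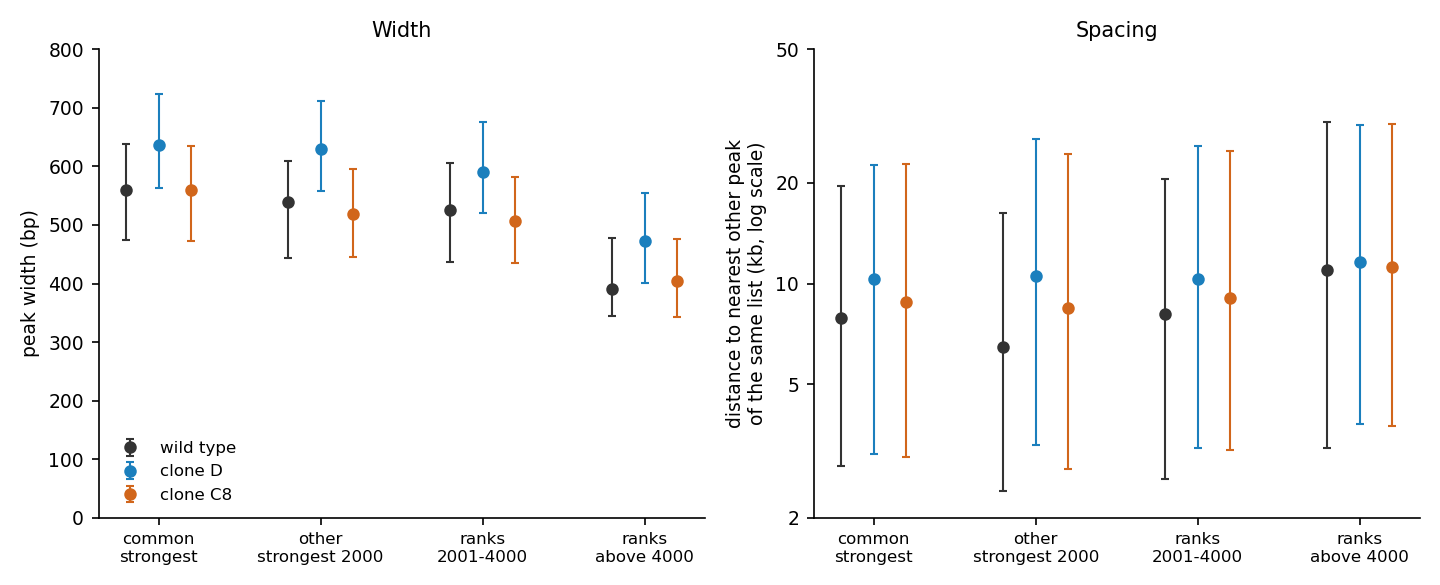
Left, peak width in bp; right, distance in kb (log scale) from a peak to the nearest other peak of the same list, for the 657 common strongest sites, the other 1343 of the strongest 2000, the 2000 peaks at ranks 2001 to 4000 and all weaker peaks, in each list. Points are medians over peaks and bars run from the lower to the upper quartile; the median widths of the common sites were 559 (wild type), 637 (clone D) and 559 bp (clone C8).

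At equal rank, the difference in width between common sites and other strong peaks varied from library to library. In 5 classes of wild-type rank their median width was above that of the other peaks in 4, and at ranks 1001 to 1500 it was below, at 545 against 551 bp. In clone C8 the common sites were wider in all 5 classes, with the smallest difference at ranks 501 to 1000 (559 against 535 bp) and the largest at ranks 1501 to 2000 (573 against 504 bp). In clone D the direction varied. The common sites were narrower at ranks 1 to 100 (662.5 against 752 bp), where only 6 peaks were not common sites. They were also narrower at ranks 501 to 1000 (630 against 640 bp) and 1501 to 2000 (593 against 609 bp). They were wider at ranks 101 to 500 (658.5 against 654.5 bp) and 1001 to 1500 (632.5 against 629 bp).

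Wide peaks were more frequent and narrow ones rarer among the common sites than in the lists. A width of at least 800 bp was found at 33 sites in wild type (5.02%), 49 in clone D (7.46%) and 28 in clone C8 (4.26%), against 0.842%, 1.48% and 0.6% of all peaks in those lists. The other 1343 of the strongest 2000 lay between, at 3.20%, 4.84% and 2.08%. Widths below 400 bp were found at 43 (6.54%), 9 (1.37%) and 40 sites (6.09%), against 49.1%, 21.5% and 43.1% of all peaks and 158, 22 and 148 of the other 1343 strongest. For narrow peaks, most of the contrast with the whole lists was thus common to all strong peaks. For wide peaks, the other strongest stood nearer to the common sites in wild type and clone D. In clone C8 they stood nearer to the whole list. Within the 657 sites width followed rank weakly, with rho of −0.10 in wild type, −0.17 in clone D and −0.02 in clone C8, against −0.46, −0.58 and −0.56 over the whole lists. These sites cover only the first 2000 ranks of each list, which narrows the range of ranks. The share of wide peaks was high at sites that the rule had already drawn from the strong end of each list.

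Clone D peaks were wider than those of the other libraries at most sites. They exceeded the wild-type peak at 464 of the 657 sites (70.6%), with a median ratio of 1.12, and the clone C8 peak at 474 (72.1%), with a median ratio of 1.14. The clone C8 peak exceeded the wild-type peak at 307 sites (46.7%). Over the 24069 wild-type peaks called in both clones these shares were 68.5%, 72.6% and 48.2%, so the common strongest sites followed the lists as a whole. Widths at the same site were weakly related between libraries, with rho of 0.35 for wild type and clone D, 0.30 for wild type and clone C8 and 0.35 for the clones. Over the 24069 peaks the same values were little higher, at 0.40, 0.37 and 0.45.

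The widest site, chr1:7386700-7387932, measured 1233, 1022 and 1086 bp (wild type, clone D and clone C8) and had a second wild-type peak 281 bp away. The next widest, chr17:79003032-79004252, measured 1221, 1180 and 952 bp, and chr1:88312303-88313396 measured 1094, 881 and 1005 bp. These 3 sites were wide in every list. The fourth, chr3:10306880-10307954, measured 1075 and 1235 bp in the first pair of lists but 424 bp in clone C8, where the next peak lay 73 bp away.

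The narrowest sites were picked by their wild-type width, which by itself favours wider partners in the clones. The site chr17:80240197-80240478 measured 282 bp in wild type against 590 and 375 bp in the clones. At chr7:19928877-19929176 the widths were 300, 314 and 374 bp, at chr17:74727489-74727798 they were 310, 459 and 465 bp, and at chr17:88910666-88910975 they were 310, 368 and 361 bp. The narrowness in wild type was thus kept in both clones at chr7:19928877-19929176 and chr17:88910666-88910975, with all widths below 400 bp.

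The common strongest sites usually had a weaker CTCF peak close by. In wild type the median distance from a site to the nearest other peak was 7.91 kb (quartiles 2861 and 19494 bp), against 10.5 kb for all wild-type peaks. Within the clone D list it was 10.3 kb against 11.4 kb, and within the clone C8 list 8.83 kb against 10.9 kb. Another peak lay within 10 kb at 357 sites in wild type (54.3%, 50.4 to 58.2), where 48.8% of all peaks had such a neighbour, at 322 in clone D (49.0%, 45.1 to 52.9; 46.4% of all peaks) and at 338 in clone C8 (51.4%, 47.5 to 55.3; 47.7%). Within 1 kb the wild-type sites, at 69 (10.5%, 8.26 to 13.1), stood at the level of the whole list, where 10.5% of peaks had such a neighbour. At 10 kb the interval of the sites lay above the share of all peaks in wild type and included it in both clones. At 50 kb it lay above in all 3 lists: another peak was that near at 93.3% of the sites in wild type (91.1 to 95.1), where 85.1% of all peaks had one. The clone D list gave 89.0% (86.4 to 91.3) against 85.4%, and the clone C8 list 90.6% (88.1 to 92.7) against 85.3%. For the other 1343 of the strongest 2000 the shares at 50 kb were 95.5% in wild type, 88.1% in clone D and 89.1% in clone C8. The sites were thus seldom isolated in any of the lists, as were the other strongest peaks.

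Set against the other strongest peaks, the common sites had fewer near neighbours in wild type, while the clones differed little and in both directions. In wild type 62.5% of the other 1343 peaks had a neighbour within 10 kb (59.8 to 65.1), against 54.3% of the common sites. In clone D these shares were 48.3% and 49.0%, and in clone C8 53.5% and 51.4%. The nearest peak of the strongest 2000 lay within 100 kb at 229 common sites in wild type (34.9%, 31.2 to 38.6) and at 43.4% of the others (40.7 to 46.1). In clone D the shares were 36.1% and 32.0% and in clone C8 34.2% and 34.3%. Whether the difference between lists exceeds what a second wild-type library would show was not tested.

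The neighbour of a common strongest site was a strong peak at few sites, yet somewhat more often than over all wild-type peaks. The nearest wild-type peak had a median rank of 16952 of 40271, against 19734 for the nearest neighbour of any wild-type peak. For the other 1343 strongest peaks the nearest wild-type peak had a median rank of 15836. It was among the strongest 2000 at 49 sites (7.46%), against 5.37% for all wild-type peaks and 8.19% for the other 1343 strongest, and it was another common strongest site at 20 (3.04%). It came from the weaker 50% of the list at 268 sites (40.8%), against 49.0% for all wild-type peaks and 38.9% for the other 1343 strongest. The common sites thus shared these neighbour ranks with other strong peaks.

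From a common strongest site to the next such site the distance was far longer. With 657 sites among 40271 wild-type peaks this follows from the counts, and no set of equal size was compared. The median distance to the nearest other common site was 663 kb, with quartiles of 210 kb and 2.02 Mb. Only 18 sites (2.74%) had another within 10 kb and 101 (15.4%) within 100 kb, while 50 had none within 5 Mb. Measured along each chromosome, the 637 intervals between successive sites had a median length of 1.77 Mb (quartiles 0.452 and 4.84 Mb) and held a median of 34 other wild-type peaks. In 15 intervals no other wild-type peak intervened.

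**Figure D4:**
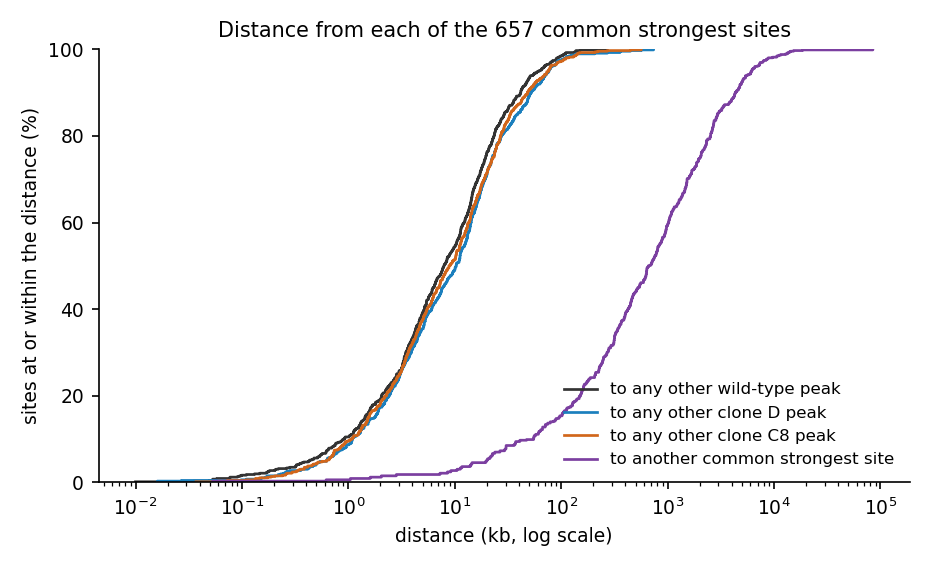
Distance in kb (horizontal axis, log scale) from each of the 657 common strongest sites to the nearest other peak of the wild-type, clone D or clone C8 list and to the nearest other common strongest site, as the share of sites at or within that distance (vertical axis, %). The 3 lines for any peak run together, at 54.3% in wild type within 10 kb. The line for another common site lies far to the right, with 15.4% within 100 kb, since these sites are a small part of the list.

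The 5 closest pairs of common sites lay within 2.1 kb of each other, with no other wild-type peak between them. The closest pair, on chromosome 13, was chr13:114655109-114655723 and chr13:114655777-114656409, 53 bp apart, with ranks of 431 and 1567 in wild type, 207 and 1076 in clone D and 315 and 356 in clone C8. On chromosome 6, chr6:72484007-72484542 and chr6:72485161-72485604 were 618 bp apart and ranked 768 and 994 in wild type, 581 and 239 in clone D, and 274 and 223 in clone C8. In the first pair the same peak was the stronger in all 3 lists. In the second the order was turned in both clones.

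The other close pairs lay 1044 to 2040 bp apart. On chromosome 9 they were chr9:71462304-71462978 and chr9:71464023-71464421, ranked 563 and 1001 in wild type, 268 and 610 in clone D, and 182 and 236 in clone C8. On chromosome 10 they were chr10:119668791-119669321 with chr10:119670925-119671569 and chr10:127622837-127623558 with chr10:127625599-127625997. In each of these pairs the peak that was stronger in wild type was the stronger in both clones. In the last pair the second peak ranked 170 in wild type, 50 in clone D and 423 in clone C8, against 1150, 408 and 661 for the first.

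Most windows of 2 Mb held no common strongest site. With 657 sites for 1305 windows many empty windows follow from the counts alone, so nothing is read from their share. Of 1305 windows of 2 Mb with at least 1 wild-type peak, 868 (66.5%) had none, 283 had 1, 108 had 2, 36 had 3, 4 had 4, 4 had 5, 1 had 6 and 1 had 8. The window with the most sites was on chromosome 10 from 126000001 to 128000000, with 8 sites among 125 wild-type peaks. It held 16 of the strongest 2000 peaks of wild type, 14 of clone D and 11 of clone C8. It was followed by chromosome 1 from 180000001 to 182000000, with 6 sites among 47 wild-type peaks.

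Windows with 5 sites lay on chromosome 11 (100000001 to 102000000, 113 wild-type peaks), chromosome 12 (70000001 to 72000000, 57 peaks), chromosome 2 (74000001 to 76000000, 42 peaks) and chromosome 7 (18000001 to 20000000, 60 peaks). In the window of chromosome 7 all 5 strongest wild-type peaks were common sites, and clone C8 had 10 peaks of its strongest 2000 there. These windows were picked as the fullest of the 1305, with equal counts all named.

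The longest stretches without a common strongest site were on chromosomes X and 4. The longest, from 72919900 to 157837085 on chromosome X, ran for 84.9 Mb and held 815 wild-type peaks, 7 of them among the strongest 2000. On chromosome 4 a stretch of 59.5 Mb from 46670427 to 106202378 held 541 wild-type peaks and 9 of the strongest 2000, and another of 28.2 Mb from 14849711 to 43018580 held 318 and 2. A second stretch on chromosome X, from 8638529 to 50287674, ran for 41.6 Mb with 416 wild-type peaks and 0 of the strongest 2000. On chromosome 1 the longest ran for 25.4 Mb from 107608406 to 133051995, with 248 peaks and 6 of the strongest. CTCF peaks were thus called throughout these stretches, and what they lacked was peaks at the head of all 3 lists.

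The sites farthest from any other common site included 2 at the borders of the stretches on chromosome X. The site chrX:157837085-157837526 ranked 890 in wild type, 52 in clone D and 90 in clone C8, with an ordinary wild-type peak 12989 bp away. The site chrX:50287674-50288092, at 15278630 bp from another, ranked 564, 342 and 1138. On chromosome 18 a site stood alone by 18488873 bp, on chromosome 6 chr6:3397382-3397864 by 14278054 bp with ranks of 118, 44 and 63, and on chromosome 5 chr5:3633962-3634410 by 13914425 bp with ranks of 1626, 211 and 322.

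Strong sites without any CTCF peak nearby were few. The most isolated site, chrX:65566723-65567257, had its nearest other peak 271053, 271294 and 271173 bp away in the 3 lists, and ranked 1005, 538 and 499. The site chr8:79678347-79678838 was isolated by 137335, 137247 and 137270 bp. These 2 sites had the same neighbour distance in all lists to within 250 bp. The site chr2:86304868-86305266 was isolated by 150871 bp in wild type and by 738322 and 446315 bp in clone D and clone C8, where the nearer wild-type neighbours had no counterpart in the list.

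At 2 further isolated sites the neighbourhood differed between libraries. The site chr6:22443861-22444457 had no other wild-type peak within 137520 bp, but both clones had one, at 11059 bp (clone D) and 11248 bp (clone C8). The site chr15:71748042-71748494, ranked 366, 177 and 40 in wild type, clone D and clone C8, had its nearest neighbour at 133381 bp in wild type and 130224 bp in clone C8 but at 446996 bp in clone D. A peak that is not listed was not called, which does not show an unbound site.

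Common strongest sites were spread over all autosomes in rough proportion to the number of CTCF peaks, and were rare on chromosome X. The 19 autosomes held 651 sites among 38639 wild-type peaks (1.68%, 1.56 to 1.82), or 2.70 sites per 10 Mb between the first and last wild-type peak of each chromosome. Chromosome X held 6 sites among 1610 wild-type peaks (0.373%, 0.137 to 0.809), or 0.368 per 10 Mb, and chromosome Y held 0 of 22. Across the 19 autosomes the number of sites and the number of wild-type peaks had a rho of 0.80, a description in which both counts grow with chromosome length.

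The rarity on chromosome X was already present in each list before the lists were compared. In wild type 15 of the 1610 peaks there (0.932%) were among the strongest 2000, against 5.14% of autosomal peaks. Clone D had 18 of 827 (2.18%, against 6.85%) and clone C8 20 of 944 (2.12%, against 6.31%). Of the 15 strong wild-type peaks on chromosome X, 6 (40.0%, 16.3 to 67.7) were common sites, against 32.8% of the 1985 on autosomes. The median enrichment of wild-type peaks was 15.86 on chromosome X, the lowest of the chromosomes other than Y. Ranked by −log10 p, chromosome X held 3 sites.

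The 6 sites on chromosome X differed in kind. The first, chrX:72919068-72919900, had ranks of 108, 406 and 796 in wild type, clone D and clone C8 and −log10 p values of 310.922, 310 and 246.249, at or near the top of the scale in wild type and clone D, where the highest values were 310.922 and 310. It measured 833 bp, and its false discovery rate in the wild-type list was 1. The other 5 had wild-type −log10 p values of 53.319 to 69.69. They were the 3 sites named above, chrX:7891917-7892443 (rank 1135 in wild type) and chrX:8638113-8638529 (ranks 1445, 537 and 1962), the last 2 lying 745669 bp apart.

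**Figure D5:**
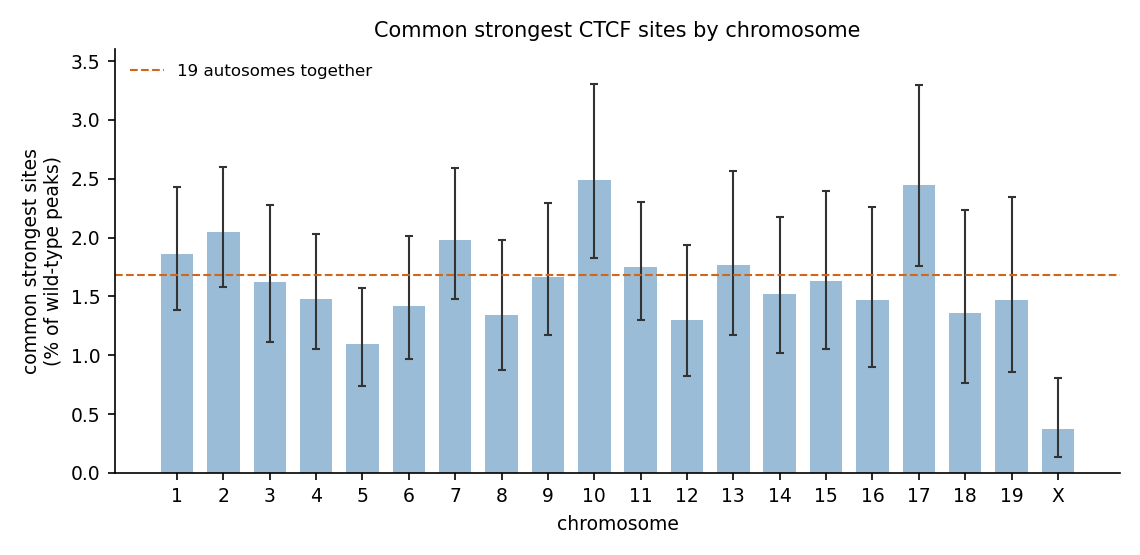
Common strongest sites as a share of all wild-type peaks of the chromosome (bars, %), with exact 95% binomial intervals that cover counting error only; the dashed line is the share over the 19 autosomes (1.68%). Chromosomes 10 (2.49%) and 17 (2.44%) are the highest, and chromosome X (0.373%) is the lowest.

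Among autosomes the share of wild-type peaks that were common strongest sites ran from 1.10% on chromosome 5 (29 of 2641, 0.737 to 1.57) to 2.49% on chromosome 10 (46 of 1848, 1.83 to 3.31). Chromosome 17 followed with 2.44% (41 of 1678, 1.76 to 3.30). These were the 3 autosomes whose interval did not include the share over all autosomes. With 19 intervals looked at, some can miss that share by counting alone. The intervals also count each site as independent, while 8 of the 46 sites on chromosome 10 lay in a single window of 2 Mb. Differences between chromosomes were not tested. With the strongest 1000 or 4000 peaks taken, chromosome 5 had 0.303% and 3.71%, and chromosome 10 had 0.920% and 4.98%. By −log10 p they had 1.63% and 2.44%, so chromosome 5 stayed below chromosome 10 in every case. Chromosome 10 was not always the highest autosome, nor chromosome 5 always the lowest. With 4000 peaks, chromosomes 16 (3.45%), 4 (3.59%) and 12 (3.66%) stood below chromosome 5.

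On chromosome 5 many strong wild-type peaks were not common sites. Wild type had 140 of its strongest 2000 peaks there and 29 (20.7%, 14.3 to 28.4) were common sites, the lowest share of any chromosome, against 32.8% over autosomes. Clone D had 107 and clone C8 122 of their strongest 2000 peaks on chromosome 5. On chromosome 18, 15 of 45 (33.3%) were common sites, on chromosome 16, 20 of 48 (41.7%, 27.6 to 56.8), the highest share, and on chromosome 14, 29 of 71 (40.8%, 29.3 to 53.2).

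Per length, chromosomes 17 and 11 were the densest, with 4.45 and 4.21 sites per 10 Mb, followed by chromosome 2 with 3.64 and chromosome 10 with 3.62. Chromosome 11 also had the most wild-type peaks per length, 240.4 per 10 Mb, so its 1.75% of peaks lay at the level of the autosomes. The thinnest autosome was chromosome 18 with 1.71 sites per 10 Mb. Chromosome 17 was thus dense both per length and per peak.

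The authors' −log10 p placed the sites of some chromosomes differently in clone C8. The median −log10 p over the 657 sites was 75.3 in wild type, 96.1 in clone D and 86.9 in clone C8. The 23 sites on chromosome 12 had medians of 83.8, 103.2 and 68.0, above the median of all sites in wild type and clone D and below it in clone C8. The 25 sites on chromosome 8 had medians of 76.5, 99.3 and 99.5, and so stood highest against the other sites in clone C8. The median enrichments on chromosome 12 were 88.6, 56.1 and 64.6, against 91.8, 53.8 and 69.8 over all sites.

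The strongest 2000 peaks of each list fell on these chromosomes in different numbers by the 2 measures. By −log10 p, chromosome 8 had 77 of them in wild type, 102 in clone D and 153 in clone C8, against 87, 103 and 109 by enrichment. Chromosome 12 had 141 in wild type, 95 in clone D and 63 in clone C8, against 91, 69 and 69 by enrichment. Chromosome 1 had 223, 240 and 241 by −log10 p and 156, 180 and 166 by enrichment. These 3 chromosomes were picked after their values were seen. The measure bears on which sites count as strongest: 488 of the 657 sites (74.3%) were also among the 891 found when all lists were ranked by −log10 p.

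The authors' false discovery rate was high at some of the sites with the largest −log10 p. A rate above 0.05 was given to 11 of the 657 sites in wild type, 34 in clone D and 0 in clone C8, where 47.3%, 5.2% and 14.6% of all peaks had such a rate. The sites thus stood at about the share of the whole list in clone D, and far below it in wild type and clone C8. All 11 and all 34 had a −log10 p of at least 100, which 150 sites reached in wild type and 294 in clone D. The highest rate was 1 in wild type and 0.1667 in clone D, while the median over the sites was 0.0038, 0.0031 and 0.0026 in wild type, clone D and clone C8. At these sites a high −log10 p thus stood beside a high rate in the same list.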

How the data were processed

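CTCF ChIP-seq peak lists were analysed, 1 deposited list for each of 3 libraries. Per the submitters' processing notes, the tools included bcl2fastq 1.8.4 and Bowtie 1.0.0, with mm9 as the build; no source used here names the peak caller. Column 7 of the deposited lists holds a fold enrichment (a ratio, denominator not stated), column 8 a −log10 p and column 9 a false discovery rate as a fraction; these readings rest on the file layout and the values, and the values are the authors'.

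Peaks were ranked by enrichment, with ties by chromosome (text order) and start, and 2000 were taken per list. Distances run edge to edge. Shares carry exact (Clopper-Pearson) 95% intervals. The named regions follow a rule by rank, rank ratio, spacing, width and window; chromosomes 1, 8, 12, 14 and 16, the site with clone peaks apart and the members on chromosome X were added after their values were seen. The members and lists were chosen with earlier results of these data known. No mm9 genome was used here, so genes, sequences and the planned motif search were not analysed here. Alternatives were other set sizes, ranking by −log10 p, stricter and looser overlap, autosomes only, each clone left out, and the treatment of ties. Python 3.11.15, pandas 2.3.3, numpy 2.4.6, SciPy 1.17.1 and matplotlib 3.10.9 were used. On simulated lists, 400 of 400 planted common sites were recovered with 0 wrong calls, and on the real lists 7 of 7 comparisons equalled bedtools 2.31.1.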

Additional observations from a re-analysis of the deposited data

How the results depend on the processing

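Of 50 values under an alternative, 34 moved by less than the spread between the clones (1 SD) and 16 moved by more. The median width (559 bp) stayed within that spread under every alternative run. The share of the strongest wild-type peaks that were common sites (32.9%) was 27.8% with the 1000 strongest peaks, 42.3% with 4000 and 44.55% ranked by −log10 p, and 46.5 to 49.9% with a clone left out. The median distance to the nearest other wild-type peak (7908 bp) was 6780 bp ranked by −log10 p. The median distance between common sites (663316 bp) was 2253281 bp with 1000 peaks, 218048 bp with 4000, 348628 bp ranked by −log10 p, and 366737 to 444039.5 bp with a clone left out; these alternatives change the number of sites by construction. The mean rho of wild type with the clones (0.4439) was 0.4824 with 1000 peaks, 0.3586 with 4000 and 0.5285 ranked by −log10 p, and 0.3858 to 0.4080 with a clone left out. Overlap, autosomes and ties moved none of the 5 results; the treatment of ties was added after seeing the data. No paired analysis was made, since the labels give no pairing between wild type and the clones and nothing was tested. The motif and gene alternatives were not run. The depth of the libraries is unknown.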
